A study of Rattus norvegicus with 4 samples.

Results

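The proteasome genes were taken as every gene whose symbol is Psma, Psmb, Psmc, Psmd or Psme followed by a number. Of 43 such rat symbols, 41 had a probe on the array, among 26633 genes and transcripts in all, and Psmb11 and Psmd11 had no matched probe. They were measured in soleus, a slow postural hindlimb muscle, of male rats. Normal muscle and regenerated muscle, the latter taken 8 weeks after an injection labelled CTX, were from rats of 16 weeks. Overloaded muscle, labelled hypertrophied, and regenerated muscle that was also overloaded were from rats of 18 weeks, and the labels give no time since the injection for the last group. Each group was 1 one-colour array of RNA mixed from 6 muscles, so there was no replicate spread between samples and no test was possible. Errors below are technical standard errors from repeated spots of a probe on 1 array and leave out differences between animals. The 4 arrays lay on 1 slide with both overloaded groups in 1 row, so overload, age and slide row cannot be told apart.

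The proteasome degrades proteins that carry ubiquitin chains. Its 20S core is built of alpha rings, which gate the entry, and beta rings, in which Psmb5, Psmb6 and Psmb7 carry the proteolytic sites. The 19S cap binds ubiquitin chains, removes them, and unfolds the substrate with a ring of ATPases. Interferon gamma induces 3 replacement beta subunits, Psmb8, Psmb9 and Psmb10, which take the places of Psmb5, Psmb6 and Psmb7 to form the immunoproteasome, and the cap PA28, made of Psme1 and Psme2. Immune cells carry much immunoproteasome without further stimulation, whereas in muscle fibres the standard proteasome is the main form and serves the turnover of contractile proteins.

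The 250 bases before the annotated start are shown for the 3 immunosubunits, for Psme2, and for Psmb5 as a standard subunit, because the immunosubunits and PA28 are the interferon-inducible genes of the family. They are from RefSeq on build GRCr8, written along the gene's strand. Capitals mark the core of the interferon-stimulated response element (GAAA, any pair of bases, GAAA) in Psmb10 and Psme2, TTCNNNGAA, the gamma-activated site, in Psmb8, and TGACNNNGC, an antioxidant response element, in Psmb5. Neither of the interferon motifs was in the Psmb9 window. The windows are Psmb10 at chr19:50743293-50743542, minus strand, Psme2 at chr15:33052752-33053001, minus strand, Psmb8 at chr20:4657032-4657281, minus strand, Psmb9 at chr20:4668750-4668999, plus strand, and Psmb5 at chr15:32047380-32047629, minus strand.
Psmb10: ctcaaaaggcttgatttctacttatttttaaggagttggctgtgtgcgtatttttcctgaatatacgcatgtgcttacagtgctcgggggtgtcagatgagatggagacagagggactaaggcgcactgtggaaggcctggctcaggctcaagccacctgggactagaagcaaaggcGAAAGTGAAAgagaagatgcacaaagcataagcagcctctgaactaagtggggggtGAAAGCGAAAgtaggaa
Psme2: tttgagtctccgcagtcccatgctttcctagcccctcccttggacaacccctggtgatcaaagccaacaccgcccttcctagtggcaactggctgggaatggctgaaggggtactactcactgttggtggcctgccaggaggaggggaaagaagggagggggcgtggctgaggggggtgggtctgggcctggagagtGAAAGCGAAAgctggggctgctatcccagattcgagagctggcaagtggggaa
Psmb8: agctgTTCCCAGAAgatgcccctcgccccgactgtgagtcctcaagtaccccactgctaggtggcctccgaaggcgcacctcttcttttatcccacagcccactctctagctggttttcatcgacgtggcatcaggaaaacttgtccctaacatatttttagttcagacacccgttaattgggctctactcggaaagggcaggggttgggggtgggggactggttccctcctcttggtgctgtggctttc
Psmb9: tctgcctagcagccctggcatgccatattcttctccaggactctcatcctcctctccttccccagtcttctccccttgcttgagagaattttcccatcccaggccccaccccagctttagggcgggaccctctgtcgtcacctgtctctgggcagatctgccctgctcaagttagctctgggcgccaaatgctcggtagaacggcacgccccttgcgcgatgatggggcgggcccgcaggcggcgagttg
Psmb5: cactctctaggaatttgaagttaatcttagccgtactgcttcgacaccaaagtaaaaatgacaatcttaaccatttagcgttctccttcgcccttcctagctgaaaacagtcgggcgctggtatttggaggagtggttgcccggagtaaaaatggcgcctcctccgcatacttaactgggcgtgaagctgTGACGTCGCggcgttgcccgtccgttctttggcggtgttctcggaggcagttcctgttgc

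The Psmb10 window held the response element core with its first base 73 and 17 bases before the start, as GAAAGTGAAA and GAAAGCGAAA, and the Psme2 window held GAAAGCGAAA at 53. Both strands were searched in the windows of 38 members and in all 33465 windows of the same length. This core was in 5 members (Psma4, Psmb3, Psmb10, Psmd7 and Psme2) and in 3.41% of all windows. TTCNNNGAA was in 4 members and in 7.67% of all windows, TGACNNNGC in 7 members and in 3373 of all windows, and TGAGNNNGC, a second form of the same element, in 7 members and in 14.2%. The CCAAT box was in 18 members against 34.0% of all windows, and the GC box GGGCGG in 26 members against 30.5%. No member's window held the NF-kappaB site GGGANTTCC, a form of it with one more T, or its palindromic form, which were in 1.43%, 0.314% and 4.53% of all windows. A match is a description of the letters and not of a bound site. Psmb8 and Psmb9 lie beside Tap1 and Tap2, the peptide transporter genes of antigen presentation, on chromosome 20, and the windows of Psmb9 and Tap1 overlap by 44 bases.

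Processed signal was divided by the 75th percentile of its array, and this ratio is called the level. It follows 1 probe from array to array and sets no gene against another. Between 60.4% and 70.6% of spots were well above background, the lowest share in normal muscle, and no spot was saturated. The normal array had the highest median local background, 44 against 33, 32 and 32. Its negative controls were also highest, with a median of 59 against 48, 44 and 46. Every difference from normal muscle rests on this array. Of the 41 proteasome genes, 40 were well above background on all 4 arrays. The exception was Psma8, the alpha subunit of the testis proteasome, whose 3 probes were not well above background on any array. The 8 fibre markers, slow-fibre genes such as Myh7 among them, were well above background on all 4 arrays, which shows muscle tissue and does not tell soleus from other muscles. Among all genes above background on both arrays, the median log2 difference was -0.11 in regenerated against normal muscle and -0.12 in overloaded against normal muscle, and these medians ran from -0.20 to 0.02 and from -0.24 to 0.05 over the scalings tried. A uniform small difference is therefore read against these medians.

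**Figure D1:**
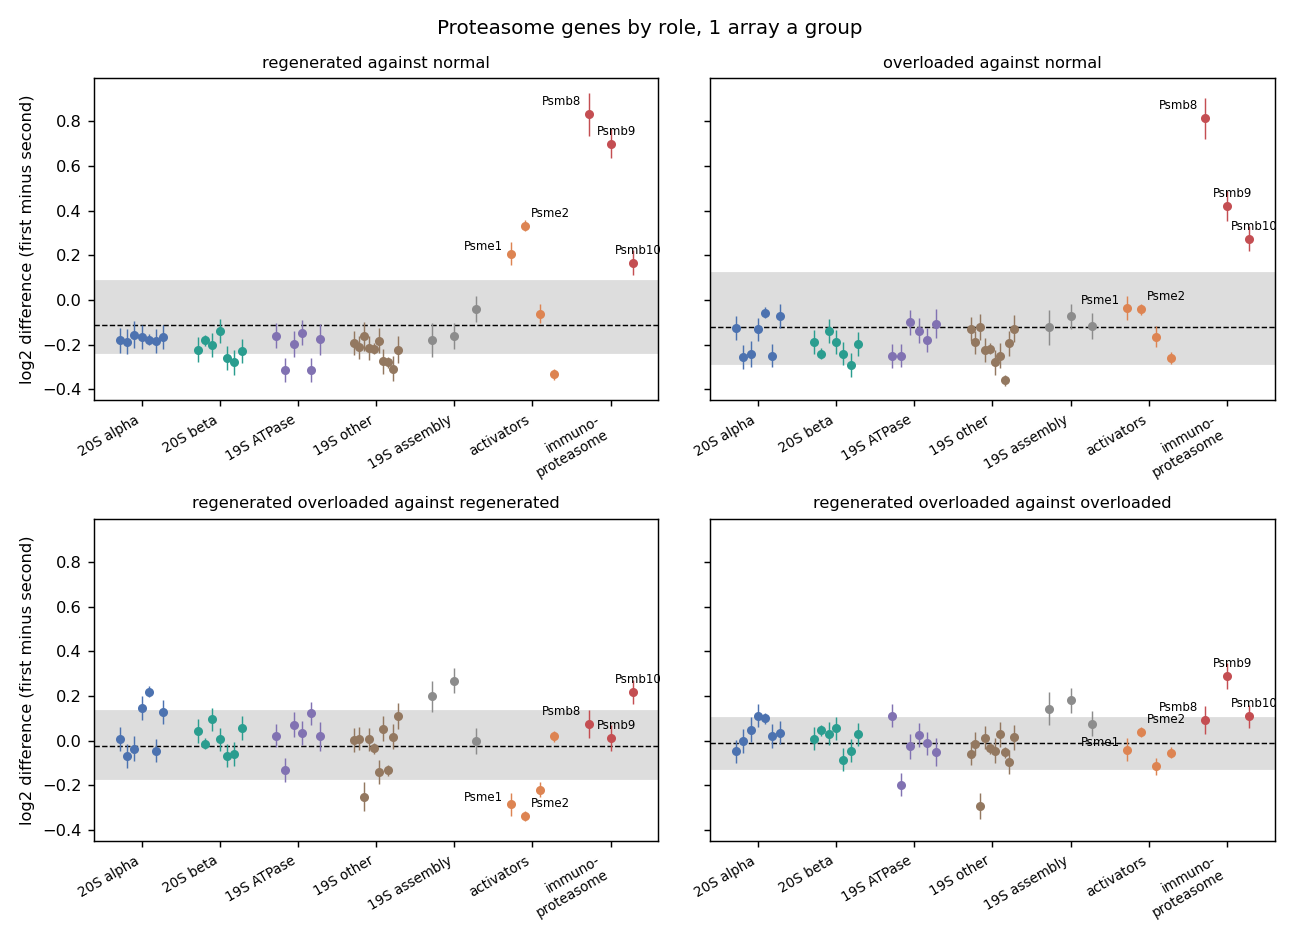
Log2 difference of every measured proteasome gene in the 4 comparisons, ordered by role in the complex, with each point 1 gene, bars the technical standard error, the dashed line the median of all genes and the grey band their interquartile range. Psmb8 and Psmb9 lie highest in both comparisons with normal muscle (0.83 and 0.70 in regenerated, 0.81 and 0.42 in overloaded), while the 30 constitutive subunits lie around a median of -0.19 in each.

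The immunosubunits were higher in all 3 altered muscles than in normal muscle. Psmb8, also called LMP7, had a level of 0.442 in normal, 0.787 in regenerated, 0.777 in overloaded and 0.829 in regenerated overloaded muscle. Normal muscle, the array with the highest background, stood apart from the other groups, which were within a narrow span. The log2 difference from normal was 0.83 with a technical error of 0.10 in regenerated muscle (1.78-fold) and 0.81 with an error of 0.09 in overloaded muscle (1.76-fold). Over the alternatives tried these ran from 0.68 to 0.96 and from 0.64 to 0.99. Regenerated overloaded muscle differed from regenerated muscle by 0.07 with an error of 0.06. In bulk muscle more cells of a type and more message per cell cannot be told apart. The leukocyte markers Ptprc, Coro1a and Laptm5 were each likewise lowest in normal muscle. Their summed level was 5.21 against 9.22, 9.30 and 10.6 in the other groups. Laptm5, the brightest of them, had levels of 4.1, 7.4, 7.2 and 8.3. The fibroblast markers Pdgfra, Dcn and Col1a1 were also each lowest in normal muscle. Their median differences were 0.74 in regenerated and 0.76 in overloaded against normal muscle. The part of immune cells or of fibroblasts in the immunosubunit differences was not tested.

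Psmb9, or LMP2, had levels of 0.832, 1.35, 1.11 and 1.36 in the same order. Both regenerated groups were above the overloaded group, which was above normal. Its log2 difference from normal was 0.70 in regenerated muscle (error 0.07) and 0.42 in overloaded muscle (error 0.07), and regenerated overloaded muscle exceeded overloaded muscle by 0.29 (error 0.06). Psmb10, or MECL-1, had levels of 4.59, 5.16, 5.56 and 6.00. It was lowest in normal muscle, with smaller differences than the other two: 0.17 in regenerated (error 0.06) and 0.28 in overloaded muscle (error 0.05), neither past the fold limit of 0.32 in log2 used here. Over the alternatives these ran from 0.08 to 0.31 and from 0.16 to 0.45, and the difference in overloaded muscle was past the limit under normexp, quantile, loess and the authors' scaling.

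The standard catalytic subunits had lower levels in the altered muscles, on a scaling where most bright genes were lower. Psmb5, the chymotrypsin-like site, had levels of 17.6, 14.7, 14.9 and 14.0. Psmb6, the caspase-like site, had levels of 8.65, 7.12, 7.06 and 6.84. Psmb7, the trypsin-like site, had levels of 9.05, 7.73, 7.89 and 8.04. Normal muscle was highest for each of them. Their log2 differences from normal were -0.26, -0.28 and -0.23 in regenerated muscle and -0.24, -0.29 and -0.20 in overloaded muscle, none past the fold limit. Genes within the signal range of the constitutive subunits had medians of -0.15 and -0.19 in these comparisons. No fall relative to other genes is therefore read from these values. With array medians Psmb5 and Psmb6 passed it, at -0.345 and -0.37 in regenerated and -0.35 and -0.41 in overloaded muscle, and over the alternatives the smallest difference in overloaded muscle came to -0.0025, for Psmb7.

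A single scaling factor of an array cancels when an immunosubunit is set against the standard subunit it replaces. A shift that depends on signal does not cancel, and the paired probes differ in brightness. On the normal array the processed signal was 293 for Psmb8 and 11628 for Psmb5. In regenerated against normal muscle, Psmb8 gained 1.09 in log2 on Psmb5 (error 0.11), Psmb9 gained 0.98 on Psmb6 (error 0.09), and Psmb10 gained 0.39 on Psmb7 (error 0.08). The mean of the 3 pairs was 0.82, or 1.77-fold. In overloaded against normal muscle the pairs gave 1.05 (error 0.11), 0.71 (error 0.09) and 0.47 (error 0.08), with a mean of 0.75. When regenerated muscle was overloaded the mean was 0.12 against regenerated muscle alone. It was 0.20 against overloaded muscle alone, where the Psmb9 pair gave 0.34. Over the alternatives tried the mean ran from 0.65 to 0.82 in regenerated and from 0.54 to 0.75 in overloaded muscle. The immunosubunit messages were thus higher against their counterparts after injury alone and after overload alone, and the further difference with both was smaller. These are ratios of messages on probes, and the protein composition of the complexes was not measured.

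**Figure D2:**
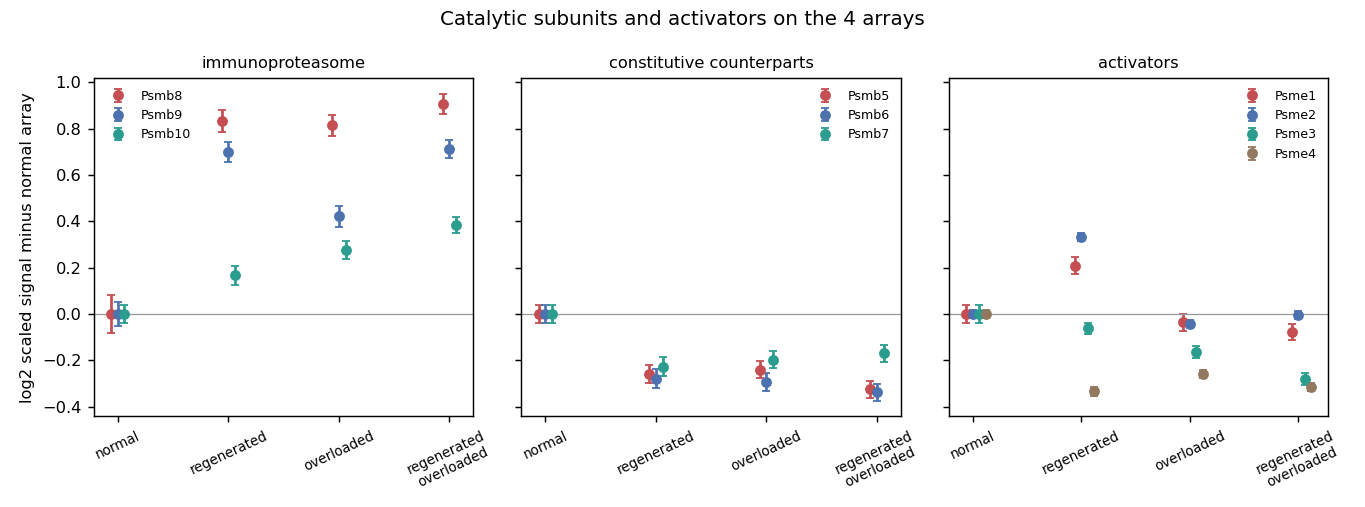
Log2 level minus that of the normal array for the immunosubunits, their standard counterparts and the activators in the 4 groups, each point 1 array with its technical standard error. Psmb8 lies 0.83 above normal in regenerated muscle and 0.81 in overloaded muscle, the standard counterparts lie below 0 in all 3 altered muscles, and Psme2 stands out in regenerated muscle alone, at 0.33.

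The PA28 subunits followed a different pattern from the immunosubunits. Psme2, PA28 beta, had levels of 13.5, 17.0, 13.1 and 13.5, so that regenerated muscle alone was high. Its log2 difference was 0.33 with an error of 0.02 in regenerated against normal muscle and -0.34 with an error of 0.02 when regenerated muscle was overloaded. Over the alternatives these ran from 0.25 to 0.51 and from -0.40 to -0.24, and the first fell short of the fold limit with array medians (0.25) and, narrowly, without the outer rows. Psme1, PA28 alpha, had levels of 14.1, 16.3, 13.8 and 13.4. It was also highest in regenerated muscle, by 0.21 over normal (error 0.05), and its difference from regenerated to regenerated overloaded muscle was -0.29. In regenerated muscle it was past the fold limit under normexp, quantile, loess and the authors' scaling, where it reached 0.39. In overloaded against normal muscle both lay near 0 (-0.04 each), with a sign that changed over the scalings tried.

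The other activators did not share that peak. Psme3, the nuclear PA28 gamma, had levels of 0.409, 0.392, 0.365 and 0.337. Psme4, or PA200, which takes part in histone degradation and DNA repair, had levels of 3.60, 2.86, 3.005 and 2.90 and a log2 difference of -0.33 in regenerated muscle. Its second probe gave -0.19 for the same comparison, short of the fold limit.

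The 30 constitutive subunits are the alpha and standard beta rings with the 19S ATPases and non-ATPases. Their median log2 difference was -0.19 in regenerated and -0.19 in overloaded against normal muscle, and all 30 lay below 0 in each. The number below 0 was scale dependent: over the other scalings it ran from 25 to 30 in regenerated and from 16 to 30 in overloaded muscle. They also lay close together: in regenerated muscle they ran from -0.31 (Psmc2) to -0.14 (Psmb4), with an interquartile range of 0.05 against 0.32 over all genes. In overloaded muscle they ran from -0.36 (Psmd12) to -0.06 (Psma5), with an interquartile range of 0.12 against 0.41. Genes within the signal range of these subunits, 5558 in number, had narrower interquartile ranges than all genes, 0.25 and 0.31. Their medians were -0.15 and -0.19, so that most bright genes were lower on this scaling. Relative to the median of all genes the constitutive subunits were at -0.08 and -0.07, but under quantile normalization these became 0.0011 and 0.05, so no direction relative to other genes is stated.

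The roles among these subunits gave similar values. In regenerated against normal muscle the medians were -0.18 for the alpha ring, -0.22 for the standard beta ring, -0.19 for the ATPases and -0.22 for the non-ATPases. In overloaded muscle they were -0.13, -0.20, -0.16 and -0.21. The lowest in regenerated muscle were Psmc2 and Psmc5, ATPases with levels of 33.6 and 64.1 in normal and 27.0 and 51.6 in regenerated muscle. Psmd12, a scaffold subunit of the lid, had levels of 21.2, 17.5, 16.5 and 15.9, with normal highest and both overloaded groups lowest. In regenerated overloaded against regenerated muscle the median of the 30 was 0.01, with 11 below 0. Against overloaded muscle it was 0.00336, with 15 below 0. Psmd3, another lid scaffold, was lowest in both of those, with levels of 1.32, 1.18, 1.21 and 0.989. Psma5 was highest against regenerated muscle, at 0.22, with levels of 8.04, 7.10, 7.72 and 8.28 that put regenerated muscle lowest.

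The 3 chaperones of 19S assembly, Psmd5, Psmd9 and Psmd10, are not part of the finished complex. In regenerated and overloaded against normal muscle their medians were -0.16 and -0.12, near those of the subunits. In regenerated overloaded muscle the median was 0.20 against regenerated and 0.14 against overloaded muscle. Psmd9 had levels of 2.72, 2.43, 2.59 and 2.93, highest in the group with both treatments. Its second probe gave 0.09 against regenerated muscle, where the first gave 0.27, so its probes disagree. Psmd5 had levels of 0.588, 0.520, 0.540 and 0.597, with normal and regenerated overloaded muscle highest. Psmd10, also known as gankyrin, was within 0.12 of 0 in every comparison.

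Counting genes past a log2 difference of 0.32 in size, the fold limit used throughout, 3 of 40 were higher in regenerated than in normal muscle (Psmb8, Psmb9 and Psme2), beside 13.3% of all measured genes, and 1 was lower (Psme4), beside 11.4%. In overloaded against normal muscle 2 were higher (Psmb8 and Psmb9), beside 15.0%, and 1 was lower (Psmd12), beside 17.1%. In regenerated overloaded against regenerated muscle none was higher, beside 11.9%, and 1 was lower (Psme2), beside 11.6%. In regenerated overloaded against overloaded muscle none was past the limit in either direction, beside 8.36% higher and 8.21% lower. Under normexp, quantile, loess and the authors' scaling, 4 were higher in regenerated and 3 in overloaded against normal muscle, and none was lower in any of the 4 comparisons, whereas with array medians 2 were higher and 8 lower in regenerated muscle, and 1 was higher (Psmb8, with Psmb9 at 0.31) and 14 were lower in overloaded muscle. On the scaling used here the counts in the family were below the shares over all genes, and no proteasome gene reached 2-fold, beside 1.92%, 3.15%, 1.99% and 1.69% of all genes in the 4 comparisons.

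The overload differences in regenerated and normal muscle were compared by subtracting the log2 difference in normal muscle from that in regenerated muscle. Over 14417 genes the median was 0.07. The constitutive subunits had a median of 0.20, from -0.13 (Psmd3) to 0.30 (Psmd8), which became 0.07 to 0.09 under the normexp, quantile, loess and authors' scalings. Psmb8 was at -0.74 (error 0.11) and Psmb9 at -0.41 (error 0.09), whereas Psmb10 was at -0.06 (error 0.08). Psmb8 was thus higher with overload in normal muscle, and in regenerated muscle, where its level was above normal before overload, the difference with overload was near 0. Of all genes, 10.3% were past the limit on the low side in this measure.

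**Figure D3:**
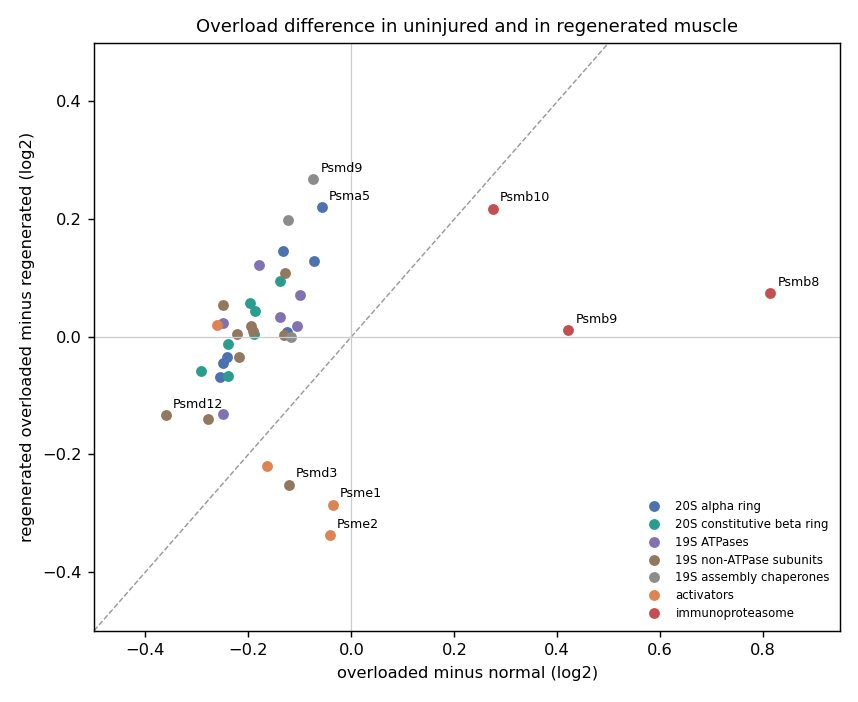
Log2 difference with overload in normal muscle (x axis) against that in regenerated muscle (y axis), each point 1 proteasome gene. The axes share no array. Psmb8 and Psmb9 lie far to the right of the diagonal (0.81 and 0.42 on x, 0.07 and 0.01 on y), and the constitutive subunits lie left of 0 on x and around 0 on y.

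Genes that work with the proteasome were read from lists. Of 16 assembly and associated factors 9 had a probe, with medians of -0.21 and -0.18 in regenerated and overloaded against normal muscle and none past the fold limit there. Pomp, the chaperone of core assembly, had levels of 36.5, 31.0, 29.8 and 29.8, again highest in normal muscle. Among the ubiquilins, which shuttle ubiquitinated proteins to the proteasome, the log2 differences in regenerated and overloaded against normal muscle were -0.27 and -0.47 for Ubqln1, -0.0048 and -0.06 for Ubqln2, and -0.49 and -0.06 for Ubqln4. Nfe2l2, a transcription factor of proteasome genes, and Ngly1, a deglycosylating enzyme, did not pass the fold limit in any comparison on the scaling used. Nfe2l2 came nearest in overloaded against normal muscle, at -0.30, and over the alternatives it ran from -0.42 to -0.11.

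The 10 muscle ubiquitin ligases, some of which mark substrates for the proteasome in atrophy, varied more. Trim63, or MuRF1, had levels of 2.09, 1.69, 1.08 and 1.06, low in both overloaded groups, with log2 differences of -0.96 in normal and -0.67 in regenerated muscle when overloaded. Fbxo32, or atrogin-1, had levels of 0.815, 0.548, 0.666 and 0.555, with normal muscle highest and a difference of -0.57 in regenerated muscle. Cblb was higher in regenerated muscle by 0.39. The Trim63 differences with overload were larger than those of any constitutive subunit, the largest of which were -0.36 and -0.25.

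Antigen processing genes were read beside the immunosubunits. Of 9 with a probe, 8 were measured in regenerated against normal muscle. Past the fold limit 4 were higher, Tap2 (0.57), Tap1 (0.50), Irf1 (0.33) and Tapbp (0.33), beside 13.3% of all measured genes. In overloaded muscle 2 of 8 were higher, Irf1 (0.54) and Tap1 (0.33), beside 15.0% of all measured genes. Irf1, an interferon-induced transcription factor, had levels of 1.54, 1.94, 2.25 and 2.19, lowest in normal muscle. Tap1 was dim, and over the alternatives its difference ran from 0.13 to 0.64 in regenerated and from 0.02 to 0.50 in overloaded muscle.

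Levels of cell type markers are given beside these values. The 3 leukocyte markers were higher past the fold limit in regenerated and in overloaded against normal muscle, with medians of 0.76 and 0.87. Over all measured genes, 13.3% and 15.0% were higher past the limit in these comparisons. Of 6 macrophage markers 5 were higher past the limit in each (Itgam was at -0.25 and -0.47), with summed levels of 3.08, 5.08, 5.46 and 5.90. Of the 6 T and NK cell markers 4 were measured against normal muscle and 3 were higher past the limit in each (Cd3g, Cd4 and Nkg7). Cd4 was not well above background in normal muscle, so its differences are lower bounds. Over the alternatives they ran from 0.12 to 0.74 in regenerated and from 0.14 to 0.97 in overloaded muscle. Those of Cd3g ran from 0.33 to 0.90 and from 0.35 to 1.03. Cd3e was not well above background on any array, and the summed levels were 0.51, 0.71, 0.81 and 0.80. The B cell marker Cd79b was not well above background on any array. Fibroblast markers summed to 43.6, 72.9, 94.9 and 120, and fibre markers to 2687, 2215, 2165 and 2027.

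**Figure D4:**
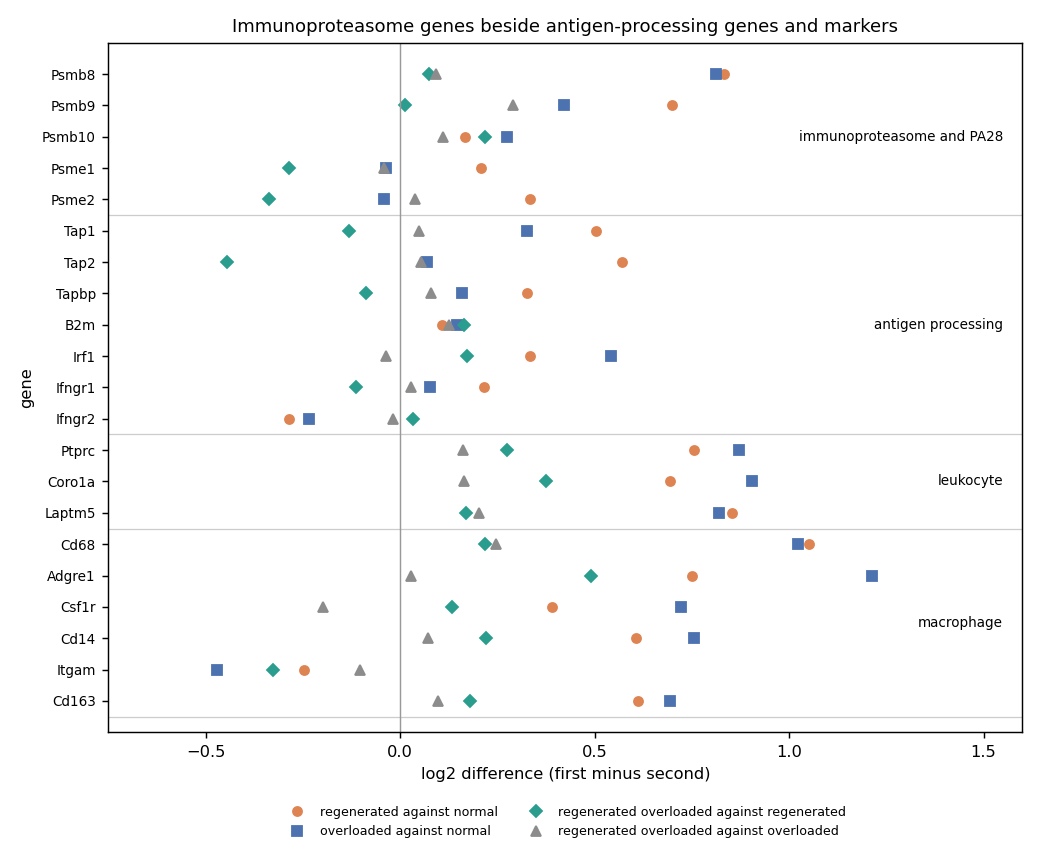
Log2 differences in the 4 comparisons for the immunosubunits and PA28, a selection of antigen-processing genes and cell type markers that were above background on all 4 arrays, each symbol 1 gene in 1 comparison. Leukocyte markers lie right of 0 in both comparisons with normal muscle, with medians of 0.76 and 0.87, as do Psmb8 and Psmb9. Fibroblast markers, not drawn here, had medians of 0.74 and 0.76 in the same comparisons.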

How the data were processed

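The arrays measured Cy3-labelled cRNA made from total RNA of rat soleus, 1 array for each of 4 groups. The deposited scanner files hold, per the file headers, spot intensities from Feature Extraction 11.5.1.1 with protocol GE1_1105_Oct12 and probe annotation on rn4 (the submitters' processing notes give 10.10.1.1 instead). The processed signal used here is a background-subtracted intensity that the authors did not scale between arrays. The authors' series table holds the same intensity times 1 constant per array (2.14, 2.10, 1.95 and 2.02), on a linear scale and not centred. What the constant was chosen from is not given in the sources used here. The deposited flags (other) mark spots that were well above background, saturated or outlying.

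Outlier-flagged spots were left out, between 406 and 451 of 58717 per array. The log2 processed signal was taken minus the array's 75th percentile, and spots of a probe were averaged. Each gene was followed by its brightest probe, of 30367 probes, of which 18643 matched a symbol in the RefSeq table through their accession. A gene was measured where its probe was well above background, by more than 50% of its spots, on at least 1 of the 2 arrays. Technical errors came from the pooled spread between spots in 20 signal bins. With so few arrays the precision is limited by their number. With 1 array per group no test was run, so genes are described by log2 differences past 0.32 in size, the fold limit, and by folds past 2. Work used R 4.3.3, limma 3.58.1 and Python 3.11.15, and the steps were tested on simulated data. Every member is reported by role, and the members and lists were chosen with earlier results of these data known. Results for some genes of the related lists are not reported here.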

Additional observations from a re-analysis of the deposited data

Results flagged for a closer look

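The injury difference of several proteasome genes had opposite signs without and with overload. Psmd9, a chaperone of 19S assembly, is given here because of 2 traits on the scaling used. Each of its differences was over 2 technical errors, and they differed by more than the fold limit of 0.32. Its log2 difference was -0.16 in regenerated against normal muscle and 0.18 in regenerated overloaded against overloaded muscle, which differ by 0.34. Relative to the median of all genes the first was -0.05, smaller in size than its technical error of 0.06. Over the alternatives it ran from -0.25 to -0.03, so its sign against other genes is not settled. With 1 array per group the difference was not tested. Its second probe gave -0.21 and -0.01, so the sign in overloaded muscle rests on 1 of its 2 probes.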

How the results depend on the processing

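No paired analysis was possible because every group is 1 array, and for the same reason no array could be left out. The alternatives changed the background correction, the scaling, the source of values, the probe rule, the filter on dim probes and the spots used; the fold relative to the median of all genes, and every alternative for the difference of differences, were added after seeing the data. Among group values and counts under the alternatives, 186 stayed close and 42 moved (by more than 0.076 in log2, or 1.5 times for a count), and the cause was not tested. The median of the constitutive subunits minus that of all genes became -0.0074 with normexp and 0.0011 with quantile normalization in regenerated muscle, and 0.0449, 0.0496 and 0.0446 with normexp, quantile and cyclic loess in overloaded muscle. The immunosubunit median minus that of all genes was 0.72 with normexp in regenerated muscle, against 0.81. The mean of the pairs with normexp, quantile and loess was 0.65, 0.69 and 0.74 in regenerated and 0.54, 0.58 and 0.63 in overloaded muscle, and 0.0313 with normexp in regenerated overloaded against regenerated muscle. The count of lower genes in regenerated muscle was 0 with normexp, quantile, loess, the authors' series table, the mean over probes and relative to all genes, 8 with the array median, and 2 with no filter or without the outer rows. In overloaded muscle it was 0 with normexp, quantile, loess, the authors' table and relative to all genes, and 14 with the array median, where 1 gene was higher. In regenerated overloaded against regenerated muscle it was 0 in the same 5 settings and 2 with the array median, and against overloaded muscle 1 with the array median and with no filter. The difference of differences of the constitutive subunits was 0.0712, 0.0851 and 0.0844 with normexp, quantile and loess and 0.0756 with the authors' table, and that of the immunosubunits was -0.54 with the authors' table. Dim genes such as Tap1 are the least precise.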
